A study of Homo sapiens with 6 samples.

Results

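The genes described here stood on the same side of the control under both of 2 short hairpin RNAs (shRNAs) against ZNF281. They were chosen as the named genes whose values in all 4 knockdown libraries lay on 1 side of both control libraries. Of 19503 named genes, 4940 met this rule, 2326 above both controls and 2614 below them. The cells were HLE, an established human hepatocellular carcinoma line. The kd.1 and kd.2 lines each carried their own ZNF281 shRNA, delivered by lentivirus, and the control line carried a control shRNA. All 3 lines were infected at a multiplicity of 10 and held in puromycin for 7 days, so the virus, a hairpin and the selection were common to every group. Each line gave 2 libraries and is 1 selected cell population, so 2 lines stand against 1. Whether the duplicates came from separate cultures is not in the labels, so the p-values rest on a spread between libraries that may be technical only.

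ZNF281 encodes a zinc-finger transcription factor that binds GC-rich DNA. It is known from work in other cells for its part in stem cell gene control, in the epithelial-mesenchymal transition (EMT) of tumour cells and in the response to DNA damage. It can act as an activator or as a repressor, and genes on both sides of a knockdown can include indirect ones. The deposited values were read as FPKM, fragments per kilobase of transcript scaled to the mapped fragments of the library, so levels of different genes are per length.

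A gene was tested when it reached 1 FPKM in at least 2 libraries, and 10851 did. Values were fitted as log2(FPKM + 0.1) with limma, and the mean of both knockdown lines was compared with the control. Calls were made at adjusted p-values under 0.05, with Benjamini-Hochberg adjustment over all tested genes. Fold changes are on this scale, which understates those of low genes, errors of log2 changes are SEs, and adjusted p-values are limma's unless another fit is named. A gene that was called and had all 4 knockdown libraries beyond both controls in the same direction is a shared member. A shared member called also when the 4 knockdown libraries were set against the 2 controls as plain groups, with the difference between the lines counted as error, is a core member. That fit takes the 4 libraries of 2 lines as 4 separate units, and a core member can still differ between the lines.

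FPKM summed to between 512672.6 and 523588.8 in the knockdown libraries, against 530349.3 and 575886.9 in controls 1 and 2. Depth is unknown, since the values are not counts. Duplicates differed on the log2 scale with an SD of 0.147 in kd.1 and 0.137 in kd.2, against 0.245 in the control, where they lay farthest apart. Of 15 hepatocyte markers listed, ALB, AFP and APOB had no values in the data. Of the other 12, 10 stayed under 1 FPKM in every library, with APOA1 and TTR at or near 0. SERPINA1 stood at 1.88 to 3.17 FPKM over all libraries, and HNF4A reached 1 FPKM only in kd.1 (1.15 and 1.2). The simple epithelial keratins KRT7, KRT8, KRT18 and KRT19 together gave 1876 to 2796 FPKM in the knockdown libraries, against 3002 and 3098 in the controls. Some markers of other cell types were under 1 FPKM in every library: PTPRC of leukocytes reached at most 0.07 FPKM, PECAM1 of endothelium 0.62 and HBB of red cells 0.08. Others were not. In their highest library LYZ on the leukocyte list reached 1.27 FPKM, ESAM on the endothelial list 2.4 and HBA1 on the erythroid list 1.94. CD68 on the leukocyte list was higher and is given below. LUM on the fibroblast list stood at 193 to 202 FPKM in the knockdown libraries, against 196 and 211 in the controls, DCN at 37.9 to 98.5, against 72.5 and 73.3, and TUBB3 on the neuronal list at 9.26 to 15.8, against 14.8 and 15.7.

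The targeted gene was checked first. ZNF281 (gene ID 23528, chromosome 1) stood at 4.35 and 4.71 FPKM in kd.1 and 4.37 and 4.47 in kd.2, against 9.52 and 8.43 in the control. All 4 knockdown libraries lay below both controls and close to one another, and no difference between the lines was detected (-0.03 for kd.2 minus kd.1, adjusted p = 0.805). The change (log2 change -0.99 ± 0.08, adjusted p = 0.000208) was called, and the adjusted p was 0.0202 with the line difference counted as error.

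Over both knockdowns, 1751 of 10851 tested genes were called up (16.1%) and 2018 down (18.6%). The 4 knockdown libraries lay above both controls in 2061 tested genes (19.0%) and below both in 2091 (19.3%). Both conditions held for 1478 risen and 1557 fallen genes, 3035 shared members in all. The other 788 genes of the 4940 were too low to test, 1117 were tested and not called, and 734 called genes had overlapping libraries. A member that passed the filter only through 1 arm had to differ, and this applied to 15 risen and 31 fallen members. With every library scaled to a common FPKM sum, 2224 genes were called up and 1031 down, and 1926 were risen and 779 fallen members, so the balance between rises and falls depended on the scaling.

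Most of these changes were small. The risen members had a median change of 1.27-fold, with 171 of 1478 at 1.5-fold or more and 16 at 2-fold or more. The fallen members also had a median of 1.27-fold, with 266 of 1557 at 1.5-fold or more and 46 at 2-fold or more. Single libraries moved these counts: without control replicate 1 there were 2735 risen and 2632 fallen members, and without control replicate 2 there were 1339 and 1457. Without single knockdown libraries the risen members numbered 767 (kd.2 replicate 2) to 1020 (kd.1 replicate 1) and the fallen 888 (kd.2 replicate 1) to 1144 (kd.1 replicate 1).

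The core held 145 risen genes (1.34% of tested genes called up in that fit) and 165 fallen genes (1.52% called down). Its median change was 1.5-fold for risen and 1.54-fold for fallen genes. Core membership is a call too, so for genes that passed the filter only through 1 arm it is no support. With 1 FPKM required in all libraries, 144 risen and 154 fallen core genes were still called as shared members. With the length trend described below removed, 145 risen and 160 fallen core genes were still called as shared members, and with the line difference counted as error as well 127 and 114 were. An exact permutation of 4 against 2 libraries cannot give a two-sided p below 0.133, so no test of single genes outside the fit is given.

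The 20 risen members with the widest gap, the smallest of the 8 log2 differences between a knockdown and a control library, rose 1.66-fold to 6.54-fold, and 19 of them are core members. ANXA10, which encodes an annexin that binds calcium and phospholipid, stood at 3.18 and 3.56 FPKM in kd.1 and 1.15 and 0.94 in kd.2, against 0.23 and 0.18 in the control. It is the 1 gene of the 20 outside the core, with kd.1 far above kd.2, and it passed the filter only through the knockdown libraries.

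**Figure D1:**
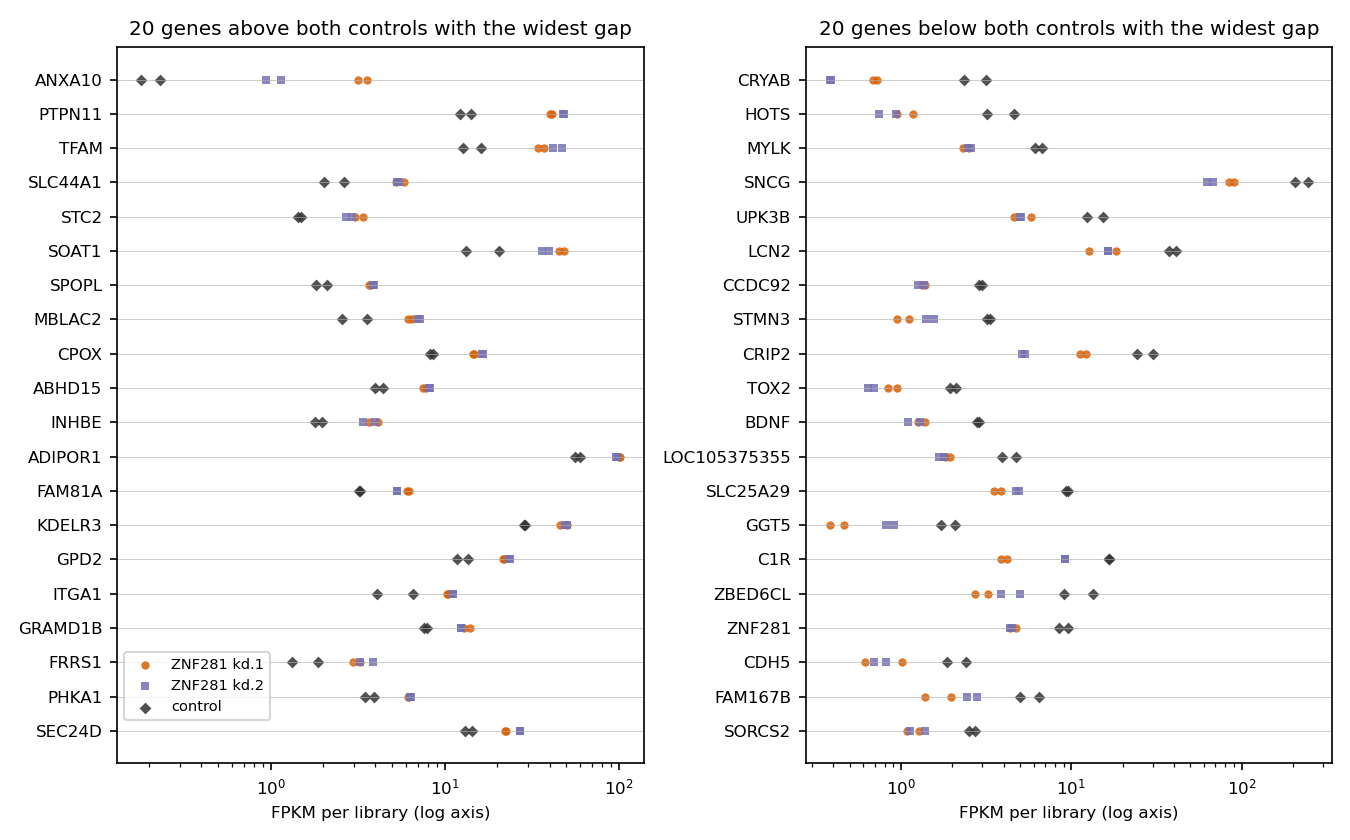
FPKM in each of the 6 libraries (log axis) for the 20 risen and 20 fallen shared members with the widest gap between knockdown and control libraries, 1 gene a row and widest at the top. Circles are kd.1, squares kd.2 and diamonds control libraries. In every row the 4 knockdown points lie on 1 side of both control points by the rule, PTPN11 at 40.5 to 48.5 FPKM against 12.2 and 14.2. ANXA10, CRIP2, GGT5 and C1R also show a gap between the 2 knockdown lines.

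Several risen core members act in signalling. PTPN11, which encodes the tyrosine phosphatase SHP2 of growth factor signalling, had 41.3 and 40.5 FPKM in kd.1 and 47.7 and 48.5 in kd.2, against 14.2 and 12.2 in the control (log2 change 1.74 ± 0.07, adjusted p = 1.2e-05). Its lowest knockdown library was well above its highest control, and it was named for the width of this gap. ADIPOR1, a receptor of adiponectin, was abundant at 95.9 to 101 FPKM in the knockdown libraries, against 55.7 and 59.6 in the controls (log2 change 0.78 ± 0.05, adjusted p = 0.000104). SPOPL, an adaptor of cullin ubiquitin ligases, stood at 3.69 to 3.94 FPKM in the knockdown libraries, against 1.83 and 2.11 in the controls, a rise of 1.9-fold. Further core genes of signalling, named after their values were seen, were the GTPase NRAS (1.45-fold higher), the kinase MAP2K1 (1.45-fold) that acts downstream of RAS proteins, the p21-activated kinase PAK2 (1.6-fold), the RAP activator RAPGEF2 (1.98-fold), the stress kinase MAP3K5 (1.63-fold), the phosphatase PTPN12 (1.37-fold) and the serum-induced kinase SGK1 (1.59-fold). MAP2K1 had 71.7 and 68.7 FPKM in kd.1 and 79.1 and 77.2 in kd.2, against 51 and 50.8 in the control. These 7 were picked because they were called, so their adjusted p-values over both knockdowns, at or below 0.00157, follow from that choice. No list of signalling genes as a whole was set up, so no count over such genes is given.

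Others act in mitochondria and haem synthesis. TFAM, which packages and transcribes mitochondrial DNA, had 34.3 and 37.0 FPKM in kd.1 and 42.1 and 46.9 in kd.2, against 16.1 and 12.7 in the control (log2 change 1.47 ± 0.10, adjusted p = 9.37e-05). CPOX, an enzyme of haem synthesis, stood at 14.5 to 16.6 FPKM in the knockdown libraries, against 8.27 and 8.57 in the controls (log2 change 0.88 ± 0.06, adjusted p = 9.37e-05). GPD2, the mitochondrial glycerol phosphate dehydrogenase, stood at 21.5 to 23.9 FPKM in the knockdown libraries, against 11.7 and 13.6 in the controls (log2 change 0.84 ± 0.07, adjusted p = 0.000214). Core genes named after their values were seen were TFB2M (1.24-fold), a mitochondrial transcription factor that acts with TFAM, the matrix protease LONP1 (1.27-fold), the inner membrane fusion GTPase OPA1 (1.54-fold) and the inner membrane transporter ABCB10 (1.54-fold). On the list for mitochondrial DNA maintenance and expression, 6 of 27 tested genes were called up and 3 down, and 3 of the 6 were core members. These shares are 22.2% and 11.1%, against 16.1% and 18.6% of all tested genes.

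A further set handles lipids. SOAT1, which esterifies cholesterol, had 45.1 and 48.3 FPKM in kd.1 and 36.1 and 39.8 in kd.2, against 20.4 and 13.3 in the control (log2 change 1.35 ± 0.15, adjusted p = 0.000994). Its controls differed from each other, and both lay below every knockdown library by the rule that chose it. SLC44A1, a choline transporter, had 5.25 and 5.83 FPKM in kd.1 and 5.30 and 5.43 in kd.2, against 2.65 and 2.02 in the control (log2 change 1.20 ± 0.11, adjusted p = 0.000311). GRAMD1B, which moves cholesterol from the plasma membrane to the endoplasmic reticulum (ER), stood at 12.4 to 14.02 FPKM in the knockdown libraries, against 7.57 and 7.93 in the controls, 1.66-fold higher. Core genes named after their values were seen included PLA2G4A (1.61-fold), the phospholipase that frees arachidonic acid, PTGS2 (1.73-fold), the cyclooxygenase that uses it, and SGPL1 (1.55-fold), which breaks down sphingosine phosphate. PTGS2 had 23.6 and 23.5 FPKM in kd.1 and 25.2 and 23.3 in kd.2, against 16.1 and 11.7 in the control. The list of lipid storage and phospholipid genes as a whole was split, with 5 of 33 called up and 6 down (5 and 1 with a common FPKM sum).

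Some risen members act in the ER and the Golgi. KDELR3, a receptor that returns ER proteins from the Golgi, had 45.9 and 50.2 FPKM in kd.1 and 49.2 and 50.1 in kd.2, against 29.01 and 28.7 in the control (log2 change 0.76 ± 0.06, adjusted p = 0.000151). SEC24D, a cargo-binding subunit of the COPII coat, had 22.2 and 22.4 FPKM in kd.1 and 26.9 and 27.0 in kd.2, against 14.4 and 13.1 in the control, 1.78-fold higher. Named after their values were seen, other than SLC35A3, the COPI coat subunits COPA (1.47-fold) and COPB2 (1.39-fold), the Golgi tethers USO1 (1.41-fold), TRIP11 (1.38-fold) and TMF1 (1.65-fold), the Golgi membrane protein YIPF5 (1.42-fold), the UDP-N-acetylglucosamine transporter SLC35A3 (1.77-fold), the glycosyltransferases GALNT3 (1.8-fold) and B4GALT1 (1.45-fold), the early endosome GTPase RAB5A (1.4-fold) and the ER stress transcription factor XBP1 (1.4-fold) were core members too. XBP1 had 115 and 118 FPKM in kd.1 and 109.7 and 108 in kd.2, against 80.7 and 79.8 in the control, and COPB2 had 126 and 128 FPKM in kd.1 and 129 and 132 in kd.2, against 100.2 and 86.1 in the control. No list of ER and Golgi genes was set up, so no count over such genes is given. With the length trend given below removed and the line difference in the error, TRIP11 (adjusted p = 0.0831) and, from above, MAP3K5 (0.0521) were no longer called.

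Among adhesion and secreted proteins, ITGA1, the integrin subunit that binds collagen with its beta partner, had 10.3 and 10.5 FPKM in kd.1 and 11.1 and 11.2 in kd.2, against 6.53 and 4.09 in the control (log2 change 1.04 ± 0.15, adjusted p = 0.00195). DSP (1.6-fold), the desmosome protein that holds keratin filaments and was named after its values were seen, and LAMB3 (1.33-fold), a laminin chain of epithelial basement membranes, are core members too. STC2, a secreted glycoprotein hormone, stood at 2.72 to 3.40 FPKM in the knockdown libraries, against 1.43 and 1.49 in the controls (log2 change 1.00 ± 0.10, adjusted p = 0.000339). INHBE, a TGF-beta family subunit made mainly in liver, stood at 3.38 to 4.12 FPKM in the knockdown libraries, against 1.80 and 1.97 in the controls (log2 change 0.97 ± 0.10, adjusted p = 0.000489). Other genes with a wide gap were MBLAC2 (6.17 to 7.21 FPKM in the knockdown libraries, against 2.58 and 3.56 in the controls), an acyl-CoA hydrolase, the alpha/beta hydrolase family member ABHD15 (1.86-fold), PHKA1 (1.69-fold), a phosphorylase kinase subunit that governs glycogen breakdown, the ferric reductase family member FRRS1 (2.05-fold) and FAM81A (1.74-fold). ARNT2, a partner of PAS-domain transcription factors, is a risen core member at a low level, with 1.16 and 1.45 FPKM in kd.1 and 1.17 and 1.33 in kd.2, against 0.43 and 0.35 in the control. It passed the filter only through the knockdown arm, so it had to differ and its place in the core is no support.

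The sequence TCAGAGT, a 7-base string searched on the transcript strand, was found in the 3' untranslated region (3' UTR) of 8 of the 20 risen and 3 of the 20 fallen members with the widest gap, 2 of which had no matched transcript. The string was chosen with earlier results of these data known, so its shares are a description and no independent support. It lay in the 3' UTR of 23.6% of 1468 risen members and 7.20% of 1513 fallen members, against 13.0% of 10569 tested genes with a 3' UTR. In the core it lay in 38.9% of 144 risen and 3.8% of 158 fallen genes. Risen members had longer 3' UTRs, with a median of 1903 bases, than fallen members (819 bases) and all tested genes (1274 bases). Per kilobase of 3' UTR there were 0.113 sites in risen and 0.061 in fallen members, 0.174 in the risen core and 0.080 in all tested genes. The first site of each of the 8 risen genes is shown on GRCh38, 5' to 3' on the transcript strand, with the 7 bases in capitals. They lie at chr12:112509835-112509859 (plus strand) in PTPN11, chr10:58395289-58395313 (plus strand) in TFAM, chr9:105389978-105390002 (plus strand) in SLC44A1, chr2:138572918-138572942 (plus strand) in SPOPL, chr5:90460523-90460547 (minus strand) in MBLAC2, chr3:98580479-98580503 (minus strand) in CPOX, chr5:52953981-52954005 (plus strand) in ITGA1 and chrX:72580233-72580257 (minus strand) in PHKA1, each inside the annotated 3' UTR.
PTPN11: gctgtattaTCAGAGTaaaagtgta
TFAM: tactgaggaTCAGAGTaatccaagc
SLC44A1: gcttcggctTCAGAGTaacgtcagt
SPOPL: tttttgttgTCAGAGTttatcattg
MBLAC2: atataaattTCAGAGTgcttcagta
CPOX: ggcagattgTCAGAGTcaattgatt
ITGA1: gctgaagacTCAGAGTcagcctacc
PHKA1: tgttggtacTCAGAGTtgtatttgc
Whether anything binds these stretches was not tested here.

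The G-rich string GGGGAGGGG, which is known as a ZNF281 binding sequence, was searched near gene starts. It lay on either strand in the window from 250 bases before to 50 bases after the RefSeq start in 9.36% of 1250 risen members, 9.59% of 1283 fallen members and 9.60% of 6407 other tested genes with a promoter in the table, and in 7.22% of all 27305 promoters there. A match is a string and not a binding site, and a window without it says nothing about the factor.

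The risen members that gained most in absolute level were KRT17, ACTG1, S100P, CD55 and TM4SF1, and none of these is in the core. KRT17, a keratin of basal and stressed epithelia, had 891 and 1149 FPKM in kd.1 and 263 and 277 in kd.2, against 213 and 224 in the control, so kd.1 was several times higher than kd.2, which lay close above the controls. S100P, a calcium-binding protein, had 615 and 745 FPKM in kd.1 and 370.4 and 354 in kd.2, against 247 and 319 in the control. CD55, which shields cells from complement, had 464 and 514 FPKM in kd.1 and 329 and 338 in kd.2, against 268 and 226 in the control. ACTG1, the cytoplasmic gamma-actin, had 1486 and 1786 FPKM in kd.1 and 1775 and 1821 in kd.2, against 1454 and 1355 in the control (log2 change 0.29 ± 0.09, adjusted p = 0.0409), a small gap on a high level. ACTG1 was no longer called after leaving out kd.1 replicate 2 (adjusted p = 0.151), either kd.2 library (0.125 and 0.145) or control replicate 2 (0.0986). That of TM4SF1, a tetraspanin-like membrane protein at 579.6 to 829.9 FPKM in the knockdown libraries, against 509.6 and 543 in the controls, was lost without kd.2 replicate 1 (0.0538) or replicate 2 (0.0569).

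The 20 fallen members with the widest gap fell 1.98-fold to 4.54-fold, and 17 are core members. ZNF281 itself is among them. CRYAB, the small heat shock protein alpha-B-crystallin, had 0.72 and 0.68 FPKM in kd.1 and 0.39 and 0.38 in kd.2, against 2.34 and 3.17 in the control. SNCG, which encodes gamma-synuclein, was the most abundant of the 20, with 90.5 and 84.5 FPKM in kd.1 and 62.4 and 68.2 in kd.2, against 205 and 246 in the control (log2 change -1.57 ± 0.08, adjusted p = 3.54e-05). For both, kd.2 lay below kd.1 and both lines lay far below the controls. CRYAB, TOX2, GGT5 and UCN2 passed the filter only through the control libraries, so they had to differ, no test is given for them, and they could not be fitted without either of these. The place of CRYAB, TOX2 and UCN2 in the core is therefore no support.

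Some fallen core members act in contraction and at the membrane. MYLK, the myosin light chain kinase, had 2.52 and 2.32 FPKM in kd.1 and 2.46 and 2.56 in kd.2, against 6.73 and 6.13 in the control (log2 change -1.35 ± 0.09, adjusted p = 9.31e-05), and the knockdown libraries differed little among themselves. ACTA2, smooth muscle actin, had 2.90 and 2.87 FPKM in kd.1 and 2.41 and 2.80 in kd.2, against 5.10 and 5.69 in the control, 1.93-fold lower. CAV1, the coat protein of caveolae, was named after its values were seen and had 22.1 and 18.2 FPKM in kd.1 and 16.9 and 16.3 in kd.2, against 33.9 and 32.8 in the control, 1.82-fold lower. On the list of actin-binding and smooth muscle genes 11 of 31 fell and 1 rose, 35.5% and 3.23%, against 18.6% and 16.1% of all tested genes. ACTG1 is not on this list. Of the 11, 8 were shared members and 2 core members, where 1557 of all 2018 genes called down were shared members. Between the lines 17 of the 31 were called, against 32.2% of all tested genes. With a common FPKM sum 7 fell and 2 rose, without single knockdown libraries 7 or 8 fell, and without control replicate 1 there were 11 down and 9 up. TAGLN2, an actin-bundling protein outside the core, had 204 and 185 FPKM in kd.1 and 136 and 136 in kd.2, against 226 and 236 in the control.

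Several fallen members encode secreted or surface proteins. LCN2, the iron-carrier binding lipocalin, had 12.7 and 18.3 FPKM in kd.1 and 16.5 and 16.3 in kd.2, against 37.3 and 41.5 in the control (log2 change -1.31 ± 0.12, adjusted p = 0.000339). BDNF, a nerve growth factor, was low, at 1.10 to 1.39 FPKM in the knockdown libraries, against 2.81 and 2.88 in the controls (log2 change -1.12 ± 0.11, adjusted p = 0.000378). C1R, a protease of the complement cascade, had 4.21 and 3.87 FPKM in kd.1 and 9.16 and 9.13 in kd.2, against 16.7 and 16.6 in the control, and GGT5, a glutathione-cleaving enzyme, had 0.38 and 0.46 FPKM in kd.1 and 0.81 and 0.91 in kd.2, against 2.07 and 1.72 in the control. In both of these kd.1 was lower than kd.2, and neither is in the core. UPK3B, a uroplakin found on urothelium and mesothelium, stood at 4.58 to 5.77 FPKM in the knockdown libraries, against 12.4 and 15.3 in the controls (log2 change -1.42 ± 0.11, adjusted p = 0.000193), and SORCS2, a sorting receptor for neurotrophins, at 1.08 to 1.38 FPKM in the knockdown libraries, against 2.49 and 2.70 in the controls (log2 change -1.04 ± 0.12, adjusted p = 0.000839).

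CDH5, the cadherin of endothelial junctions, had 0.61 and 1.01 FPKM in kd.1 and 0.69 and 0.82 in kd.2, against 2.42 and 1.86 in the control. It passed the filter through both controls and 1 knockdown library, so no test is given for it. Of the 10 endothelial markers measured, 7 stayed under 1 FPKM in every library, and the list summed to 4.17 to 4.99 FPKM in the knockdown libraries, against 5.62 and 6.25 in the controls. The leukocyte list summed to 31.6 to 34.1 FPKM in the knockdown libraries, against 23.8 and 27.7 in the controls, of which CD68, a lysosomal protein of many cell types, made up 30.2 to 32.5 FPKM in the knockdown libraries, against 22.1 and 25.5 in the controls. The part of other cells in these values was not tested, and PTPRC was near 0 as given above.

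Further fallen core genes of the cell surface were named after their values were seen. The receptor tyrosine kinase AXL had 8.27 and 7.80 FPKM in kd.1 and 10.6 and 10.9 in kd.2, against 16.4 and 15.8 in the control, 1.73-fold lower. The WNT receptor FZD2 stood at 3.02 to 4.03 FPKM in the knockdown libraries, against 5.88 and 6.13 in the controls, and the chemokine receptor CXCR4 at 14.6 to 16.2 FPKM in the knockdown libraries, against 22.4 and 23.0 in the controls (log2 change -0.56 ± 0.06, adjusted p = 0.000424). IGFBP4, which binds insulin-like growth factors, had 21.1 and 21.1 FPKM in kd.1 and 15.4 and 15.6 in kd.2, against 36.4 and 39.4 in the control (log2 change -1.06 ± 0.06, adjusted p = 3.99e-05). LOXL2, which crosslinks collagen, stood at 16.1 to 17.8 FPKM in the knockdown libraries, against 25.1 and 29.4 in the controls, and UCN2, a peptide of the urocortin family, had 0.08 and 0.39 FPKM in kd.1 and 0.19 and 0.08 in kd.2, against 1.09 and 1.51 in the control. UCN2 had the largest fold of the core, 5.31-fold lower, on values close to 0, and it passed the filter only through the controls. Its log2 change was -2.41 with a pseudocount of 0.1 and -0.96 with a pseudocount of 1 FPKM.

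The remaining fallen members with a wide gap had mixed roles. CRIP2, a LIM-domain protein, had 12.2 and 11.3 FPKM in kd.1 and 5.32 and 5.15 in kd.2, against 24.3 and 30.3 in the control, with kd.2 below kd.1. STMN3, a microtubule-destabilising stathmin, stood at 0.94 to 1.56 FPKM in the knockdown libraries, against 3.21 and 3.35 in the controls, TOX2, a nuclear HMG-box protein, at 0.64 to 0.94 FPKM in the knockdown libraries, against 1.94 and 2.10 in the controls, and SLC25A29, a mitochondrial carrier of basic amino acids, at 3.52 to 4.90 FPKM in the knockdown libraries, against 9.29 and 9.61 in the controls. CCDC92 (2.12-fold lower), FAM167B (2.66-fold) and ZBED6CL (2.97-fold) have no role given here. HOTS (3.8-fold) lies antisense within the H19 locus and LOC105375355 (2.31-fold) is an uncharacterised locus. Without knowledge of strand their reads cannot be told from those of overlapping genes, so both values are uncertain.

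Further genes were chosen from among those that fell, so their common direction follows from the choice. BBC3, which promotes apoptosis, had 1.52 and 1.17 FPKM in kd.1 and 1.55 and 1.44 in kd.2, against 2.92 and 2.77 in the control (log2 change -0.96 ± 0.12, adjusted p = 0.00107). BTG2, which restrains proliferation, had 2.91 and 2.28 FPKM in kd.1 and 3.05 and 3.32 in kd.2, against 5.07 and 5.84 in the control (log2 change -0.90 ± 0.12, adjusted p = 0.00108). CCNG1, cyclin G1, had 41.2 and 38.5 FPKM in kd.1 and 36.4 and 33.6 in kd.2, against 65.9 and 62.9 in the control. GDF15, a stress-induced secreted factor, had 41.8 and 32.2 FPKM in kd.1 and 42.6 and 42.5 in kd.2, against 64.3 and 71.8 in the control. For each, the highest knockdown library lay below the lower control, as the rule requires of every fallen member. CDKN1A, the p21 inhibitor of cyclin-dependent kinases, stood at 21.0 to 25.9 FPKM in the knockdown libraries, against 37.5 and 43.9 in the controls, and the ubiquitin ligase MDM2 at 6.32 to 9.32 FPKM in the knockdown libraries, against 14.1 and 14.8 in the controls. The apoptosis protein BAX stood at 52.5 to 65.3 FPKM in the knockdown libraries, against 86.7 and 98.6 in the controls. The DNA damage sensor DDB2 stood at 14.3 to 21.0 FPKM in the knockdown libraries, against 27.2 and 28.6 in the controls, and the death receptor TNFRSF10B at 17.7 to 21.5 FPKM in the knockdown libraries, against 27.3 and 29.9 in the controls. All of these except DDB2 are core members, and BBC3, BTG2, GDF15 and CDKN1A were named after their values were seen. With the length trend removed and the line difference counted as error, GDF15 (adjusted p = 0.07) and BAX (0.0782) were no longer called.

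Core members of proliferation and protein turnover were named after their values were seen, other than PCNA, the sliding clamp of DNA replication. PCNA had 288 and 277 FPKM in kd.1 and 283 and 281.12 in kd.2, against 387 and 399 in the control (log2 change -0.48 ± 0.06, adjusted p = 0.000843). The thymidylate synthase TYMS was 1.34-fold lower, the centromere histone CENPA 1.34-fold, the cell cycle transcription factor MYBL2 1.27-fold and the microtubule protein STMN1 1.38-fold. PSME1 and PSME2, the paired subunits of the proteasome activator PA28, stood at 63.4 to 66.8 FPKM in the knockdown libraries, against 91.0 and 102 in the controls, and at 108 to 116 FPKM in the knockdown libraries, against 137 and 156 in the controls. GPX4, which removes lipid peroxides, stood at 152 to 164 FPKM in the knockdown libraries, against 203 and 227 in the controls. With the length trend removed and the line difference in the error, TYMS (adjusted p = 0.0529), CENPA (0.0681), MYBL2 (0.0529), PSME2 (0.0557), GPX4 (0.0632) and, from above, FZD2 (0.061) and FAM167B (0.0694) were no longer called, and the log2 changes of GPX4 and PSME2 were both -0.25, against -0.43 and -0.39.

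Of 79 tested cytosolic ribosomal protein genes, 25 (31.6%) were called down, 0 up and 54 in neither direction, with a list median of -0.23. Over all tested genes 18.6% were called down. None is in the core, since 0 were called with the line difference counted as error. RPS27 and RPL13A are among the 5 fallen members with the largest loss in level, beside S100A4, PFN1 and KRT8. RPS27 had 1835 and 1889 FPKM in kd.1 and 1818 and 1581 in kd.2, against 2080.1 and 2839 in the control. RPL13A had 1983 and 2049 FPKM in kd.1 and 1609.6 and 1599 in kd.2, against 2234 and 2585 in the control. RPS20 stood at 1052 to 1133 FPKM in the knockdown libraries, against 1294 and 1569.9 in the controls and RPS27L, a paralog of RPS27, at 121 to 151 FPKM in the knockdown libraries, against 167 and 209 in the controls. In all 4, control 2 was well above control 1. S100A4, a calcium-binding protein of motile cells, stood at 1935 to 2086 FPKM in the knockdown libraries, against 2250.2 and 2996 in the controls, and PFN1, profilin, at 1434 to 1545 FPKM in the knockdown libraries, against 1723 and 2130.1 in the controls. KRT8, the keratin that pairs with KRT18, had 593 and 645 FPKM in kd.1 and 1155 and 1181 in kd.2, against 1309 and 1315 in the control, and KRT18 had 499 and 547 FPKM in kd.1 and 1008 and 1039 in kd.2, against 1123 and 1179 in the control, so that kd.1 carried most of both changes.

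These calls depended on single libraries and on the length trend. Of the ribosomal protein genes 75 were down without control replicate 1 and 19 without control replicate 2, 2 to 6 without single knockdown libraries, and 21 down with 3 up when the length trend was removed. The call of RPS27 was lost without any 1 of the 4 knockdown libraries (adjusted p = 0.0561 to 0.103), and its log2 change was -0.45 with both controls and -0.23 without control replicate 2. The same held for S100A4 (0.0817 to 0.128), whose log2 change was -0.36 with both controls, -0.57 without control replicate 1 and -0.16 without control replicate 2, and PFN1 (0.0633 to 0.0907), at -0.36 with both controls and -0.20 without control replicate 2. RPS20 lost its call without kd.2 replicate 1 (0.0506) or kd.2 replicate 2 (0.0725), and its change was -0.25 without control replicate 2, against -0.39 with both. For RPS27L it was -0.31, against -0.47. With the length trend removed the change of RPS27 was -0.15, that of S100A4 -0.12 (adjusted p = 0.0644), that of PFN1 -0.21 and that of RPL13A -0.26. Ribosomal protein genes have near-identical pseudogene copies in the genome, so their levels are uncertain.

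Transcript length differed between risen and fallen members, with overlapping ranges. The median length of the longest complete coding transcript was 4476 bases for risen and 2304 for fallen members, against 3357 for all tested genes. With genes in 5 classes of transcript length, the share of risen members was 5.13% in the shortest class and 23.4% in the longest, and the share of fallen members 26.8% and 4.99%. The control duplicates differed along the same axis: the median difference of control 2 minus control 1 was 0.16 on the log2 scale in the shortest class and -0.18 in the longest. Against control 1 the knockdown libraries differed by -0.07 in the shortest class and 0.04 in the longest, and against control 2 by -0.23 and 0.21. The part of this difference between controls in each result was not tested beyond the settings given.

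**Figure D2:**
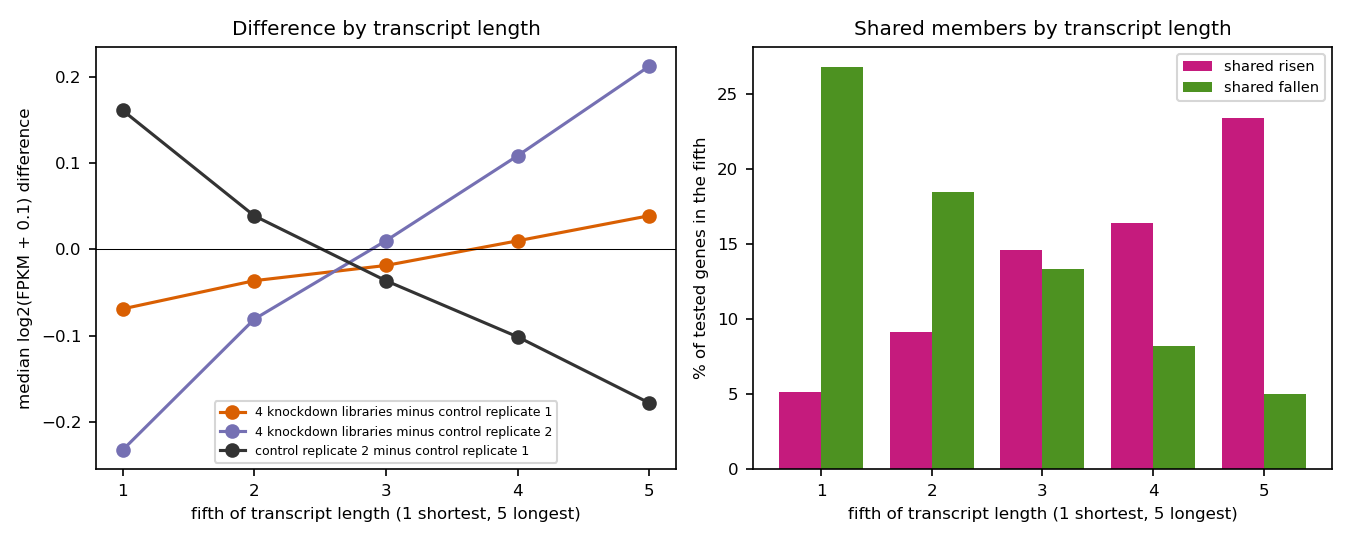
Left, median log2(FPKM + 0.1) difference in each of 5 classes of transcript length for the mean of the 4 knockdown libraries minus control replicate 1, the same minus control replicate 2, and control replicate 2 minus control replicate 1. Right, the share of tested genes in each class that are shared risen or shared fallen members, from 5.13% and 26.8% in the shortest class to 23.4% and 4.99% in the longest.

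With each library's trend on transcript length removed, 1653 genes were risen and 1536 fallen members, and 2421 of the 3035 members remained among them. With the line difference also counted as error, 193 rose and 148 fell, and 127 of the 145 risen and 114 of the 165 fallen core genes remained.

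The 2 lines were then set side by side for the same members. They share the control libraries, so likeness between them is not a result, and each line's own values are given. Of the 1478 risen members 701 were called in each line by itself, 327 in kd.1 only, 401 in kd.2 only and 49 in neither, where 15.8% of tested genes were called up in kd.1 and 15.7% in kd.2. Of the 1557 fallen members 697 were called in each line, 269 in kd.1 only, 542 in kd.2 only and 49 in neither, where 13.4% were called down in kd.1 and 22.2% in kd.2. A call in 1 line alone does not show that the lines differ. The direct comparison of kd.2 with kd.1, which does not involve the controls, called 3496 of 10851 tested genes (32.2%). It called 342 of the risen members (23.1%) and 496 of the fallen members (31.9%), against 34.0% of the 7816 tested genes that are not members. The rule keeps out many genes on which the lines part, so the lower share among members is a description. Of the core, 14 of 145 risen and 22 of 165 fallen genes were called in it.

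**Figure D3:**
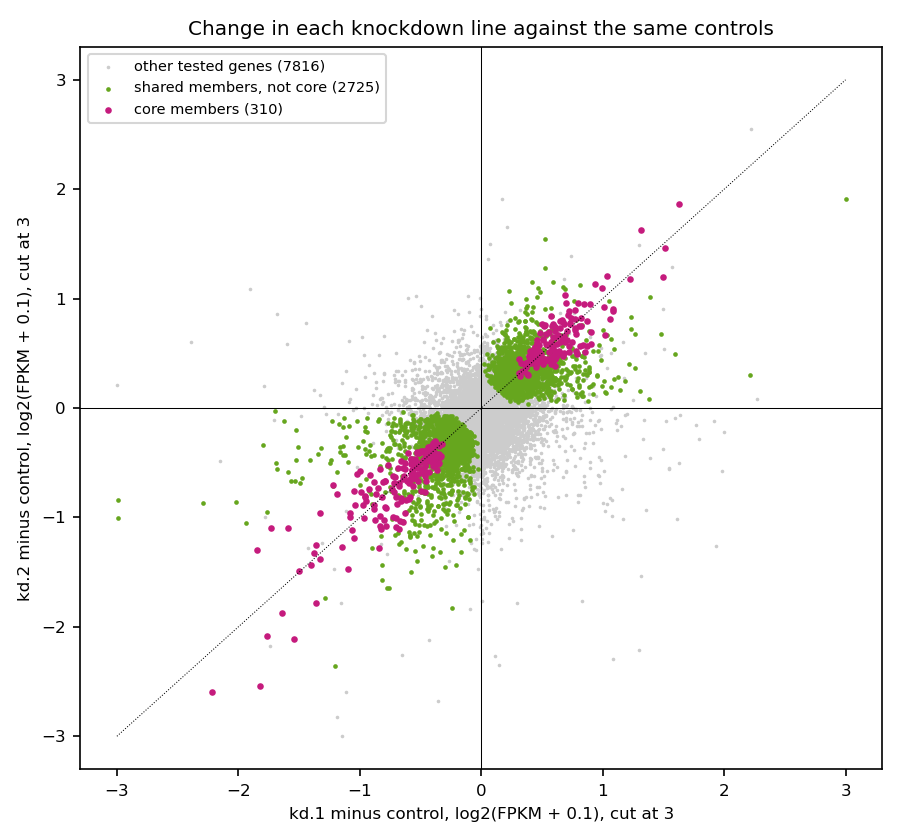
Log2 change of kd.1 minus control (x axis) and of kd.2 minus control (y axis), both cut at 3, for 7816 other tested genes (grey), shared members outside the core (green) and 310 core members (magenta), with the line of equal change dotted. Both axes use the same 2 control libraries, so the points lie along the diagonal in part by construction, and the members fill the lower left and upper right by the rule that chose them.

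Some members moved almost equally in both lines. Among risen members at 10 FPKM or more, the 5 with the least difference were YIF1A, a Golgi membrane protein, ANAPC1, a subunit of the anaphase-promoting complex, LAMB3, the divalent metal transporter CNNM4 and SLC35A3, each with a difference that rounds to 0.00 on the log2 scale. SLC35A3 had 12.1 and 12.8 FPKM in kd.1 and 12.2 and 12.7 in kd.2, against 8.15 and 5.97 in the control and YIF1A had 77.9 and 87.0 FPKM in kd.1 and 79.5 and 85.4 in kd.2, against 62.1 and 69.0 in the control. Among fallen members they were SIVA1, an apoptosis regulator, the splicing factor HNRNPH1, SMIM10, PCNA and ATP5L, a subunit of the mitochondrial ATP synthase. HNRNPH1 had 219.6 and 219 FPKM in kd.1 and 217 and 222 in kd.2, against 252 and 266 in the control. Some of these calls depended on single libraries. ANAPC1 lost its call without kd.2 replicate 1 (adjusted p = 0.0507) or 2 (0.0606), and its log2 change was 0.40 with both controls, 0.60 without control replicate 1 and 0.20 without control replicate 2. CNNM4 lost its call without any knockdown library (0.06 to 0.0934) or control replicate 2 (0.0842), HNRNPH1 without any knockdown library (0.0522 to 0.0719), SIVA1 without kd.1 replicate 1 (0.0643), kd.2 replicate 1 (0.0797) or kd.2 replicate 2 (0.0755), and ATP5L without kd.2 replicate 2 (0.058). Without control replicate 2 the log2 changes were 0.16 for CNNM4, -0.14 for SIVA1 and -0.21 for ATP5L, against 0.29, -0.27 and -0.35 with both controls. With the length trend removed they were 0.27 for ANAPC1, 0.50 for YIF1A, -0.12 for SIVA1 (adjusted p = 0.0669), -0.24 for SMIM10 and -0.23 for ATP5L, against 0.33 for YIF1A and -0.36 for SMIM10 before.

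Other members, on 1 side of the controls by the rule, moved by very different amounts in the 2 lines. The genes given here are the widest apart among those with a mean of 10 FPKM or more. BMP2, a bone morphogenetic protein, had 21.1 and 23.6 FPKM in kd.1 and 9.15 and 8.90 in kd.2, against 8.77 and 8.22 in the control, so kd.2 stood only just above the controls (difference kd.2 minus kd.1 -1.30, adjusted p = 1.81e-05). KCTD12, an auxiliary subunit of GABA-B receptors, had 15.5 and 16.1 FPKM in kd.1 and 8.15 and 8.27 in kd.2, against 7.29 and 6.51 in the control. EPGN, an EGF family ligand, went further in kd.2, with 8.32 and 7.94 FPKM in kd.1 and 16.7 and 16.4 in kd.2, against 6.30 and 5.00 in the control (1.02, adjusted p = 0.000269). KRT17 and S100P, given above, were the other 2 risen ones, and both were higher in kd.1. ANXA10, below that mean, differed by -1.60.

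On the fallen side the 5 members with the widest split all fell mainly in kd.1. CPA4, a carboxypeptidase, had 4.69 and 4.95 FPKM in kd.1 and 20.5 and 23.1 in kd.2, against 41.5 and 36.8 in the control (2.15, adjusted p = 5.55e-06), and it was low in both lines. CTBP1, a transcriptional corepressor, had 11.3 and 12.8 FPKM in kd.1 and 37.96 and 38.8 in kd.2, against 38.9 and 39.5 in the control, and CALD1, the actin-binding caldesmon, had 12.8 and 12.4 FPKM in kd.1 and 37.1 and 34.7 in kd.2, against 39.2 and 38.8 in the control. The mitochondrial ribosomal proteins MRPL27 and MRPS28 had 30.5 and 28.4 FPKM in kd.1 and 82.1 and 80.2 in kd.2, against 91.2 and 115 in the control, and 27.8 and 27.5 FPKM in kd.1 and 69.5 and 69.2 in kd.2, against 75.7 and 84.2 in the control. In these 4 genes kd.2 stood just below the lower control, and the pooled change describes kd.1 more than kd.2.

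The non-overlap rule has a sharp edge. These values are given with no test. Just inside it on the risen side, the lowest knockdown library of SERINC3 stood at 38.75 FPKM against its higher control at 38.74, that of NSF at 24.64 against 24.63, that of INTS4 at 18.12 against 18.11 and that of HNRNPH2 at 51.78 against 51.74. On the fallen side the highest knockdown library of SAC3D1 stood at 18.93 against its lower control at 18.94, that of CAMLG at 14.38 against 14.39, that of TMEM256 at 67.70 against 67.76 and that of RNF138 at 10.57 against 10.58. Just outside, the deposited values tied for ANTXR2 (0.49 FPKM in both the lowest knockdown library and the higher control), HOOK1 (2.54), KDM5C (24.04) and SCARA5 (8.63). On the fallen side they tied for CDH13 (3.06), TSTD3 (4.88) and WDR92 (9.37), and VIM, the intermediate filament vimentin of mesenchymal cells, had 325 and 339 FPKM in kd.1 and 267 and 276 in kd.2, against 339 and 350.1 in the control, with the highest knockdown library just above the lower control.

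Lists of gene families and pathways describe the called genes by function. They were set up with earlier results of these data known. Counts are of called genes among the tested genes of each list, whether or not they are shared members. Of 8 glycosyltransferases and sulfotransferases called down 1 was a shared member, of 7 tetraspanins down 4, and of 15 DEAD and DEAH box helicases up 14. Of all genes called, 1478 of 1751 up and 1557 of 2018 down were shared members. Over all tested genes 16.1% were called up and 18.6% down. Solute carriers, which move amino acids, sugars and ions, had 52 of 161 up (32.3%) and 26 down (16.1%). Named core members of this family were SLC44A1, the copper transporter SLC31A1 (25.6 to 27.6 FPKM in the knockdown libraries, against 15.04 and 18.2 in the controls), the magnesium transporter SLC41A3 (27.9 to 33.1 FPKM in the knockdown libraries, against 21.4 and 21.4 in the controls) and SLC35A3 upward, and SLC25A29 downward. ABC transporters had 7 of 26 up and 2 down, potassium channels 1 of 10 up and 3 down. The DEAD and DEAH box RNA helicases had 15 of 48 up (31.2%) and 1 down (2.08%), DHX29, which helps ribosomes scan structured leaders, at 16.5 to 17.1 FPKM in the knockdown libraries, against 11.8 and 12.9 in the controls, DHX37, a ribosome assembly helicase, at 18.4 to 21.8 FPKM in the knockdown libraries, against 14.4 and 16.1 in the controls, and the 1 that fell, the mRNA export helicase DDX39B, at 122.64 to 129 FPKM in the knockdown libraries, against 149.5 and 174 in the controls. Nucleoporins, the parts of the nuclear pore, had 9 of 28 up (32.1%) and 2 down, NUP43 in the core at 10.9 to 12.7 FPKM in the knockdown libraries, against 7.61 and 7.67 in the controls. With the line difference counted as error, 6 solute carriers were called up and 1 down. In that fit 1 helicase and 1 nucleoporin were called up and 0 of either down. Between the lines 71 of the 161 solute carriers were called, 7 of the 48 helicases and 7 of the 28 nucleoporins, against 32.2% of all tested genes. Of the solute carriers 11 were down with a common FPKM sum, and without single libraries 14 (kd.2 replicate 1) to 38 (control replicate 1). Without single libraries the count up ranged from 34 (kd.2 replicate 2) to 68 (control replicate 1) for solute carriers, from 5 (either kd.2 library) to 27 (control replicate 1) for the helicases and from 4 (kd.2 replicate 2) to 17 (control replicate 1) for nucleoporins.

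**Figure D4:**
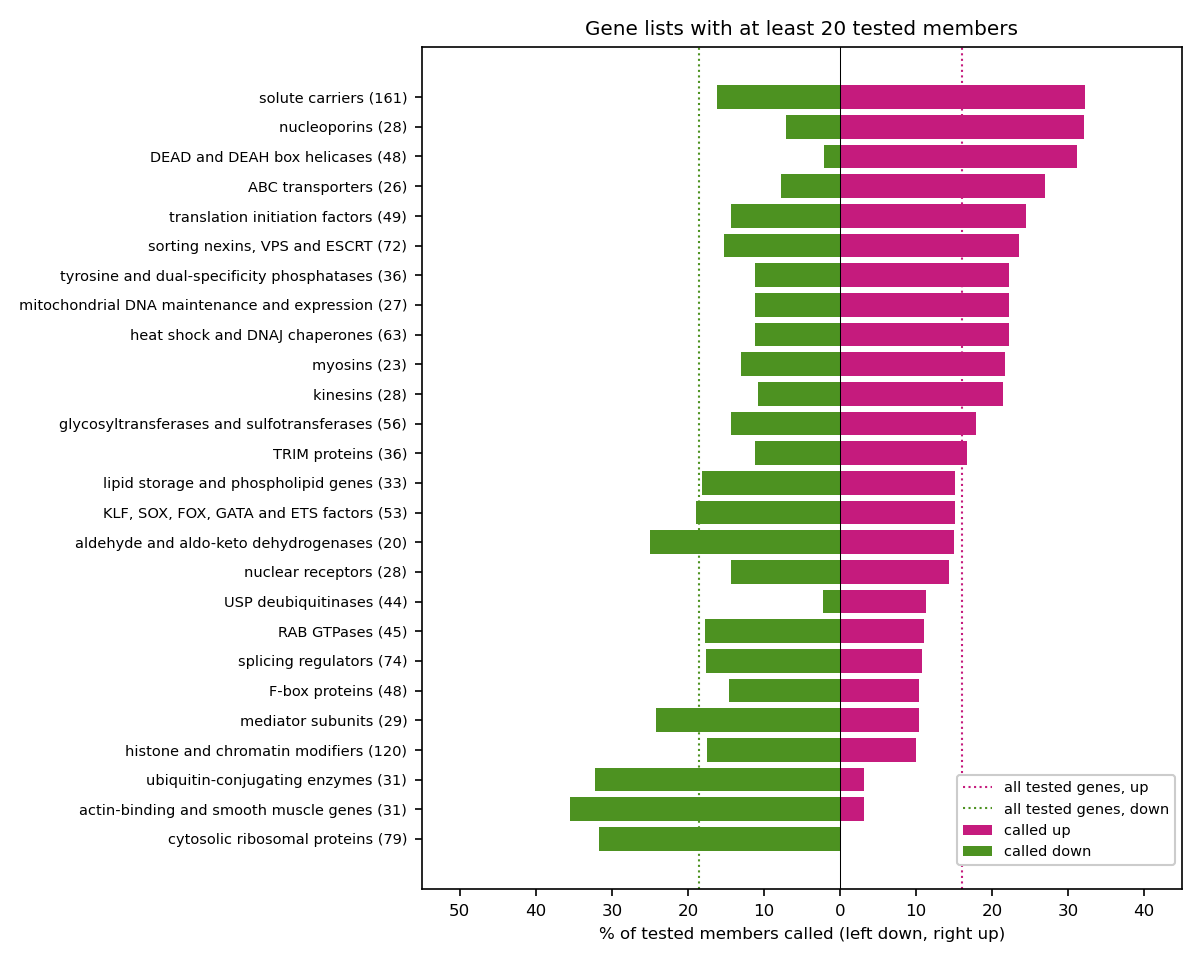
Share of tested members called up (right) and down (left) over both knockdowns in each gene list reported here that has at least 20 tested members, with the number tested in brackets. Dotted lines mark 16.1% up and 18.6% down over all 10851 tested genes. Solute carriers, nucleoporins and DEAD and DEAH box helicases have the largest shares up, and, of the lists plotted, actin-binding genes, ubiquitin-conjugating enzymes and ribosomal proteins the largest shares down.

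The ubiquitin-conjugating enzymes had 10 of 31 down (32.3%) and 1 up. UBE2V2, a non-catalytic partner in ubiquitin chain building, had 44.5 and 42.0 FPKM in kd.1 and 88.4 and 87.6 in kd.2, against 95.9 and 98.9 in the control, UBE2D3 had 41.3 and 38.8 FPKM in kd.1 and 53.6 and 49.5 in kd.2, against 68.6 and 67.2 in the control, and UBE2Z had 40.5 and 35.8 FPKM in kd.1 and 25.4 and 24.6 in kd.2, against 48.1 and 46.8 in the control, so that the lines went by different amounts in each. The count down ranged from 6 without either kd.2 library to 11 without either control, and was 6 with 4 up under a common FPKM sum. USP deubiquitinases had 5 of 44 up and 1 down (11 and 1 with a common FPKM sum, 4 and 5 with the length trend removed). Without control replicate 1 19 USP genes were up, without any 1 knockdown library 3 were, and without control replicate 2 there were 4 up and 3 down. The F-box proteins had 5 of 48 up and 7 down (8 and 3 with a common FPKM sum) and TRIM proteins 6 of 36 up and 4 down.

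Some receptor, cytokine and protease families were counted. TNF ligands and receptors had 6 of 12 down and 1 up. The count down was 3 without kd.2 replicate 1, and 4 without any other 1 knockdown library or with a common FPKM sum. The core members among them were TNFRSF10B and the ligand TNFSF13 (8.90 to 10.8 FPKM in the knockdown libraries, against 13.6 and 15.5 in the controls), while the sister death receptor TNFRSF10A was higher, with 13.2 and 13.2 FPKM in kd.1 and 22.4 and 21.2 in kd.2, against 12.4 and 10.1 in the control. Chemokines and interleukins had 5 of 14 down and 2 up, with the cytokine IL32 in the core at 1.88 to 2.50 FPKM in the knockdown libraries, against 4.08 and 4.12 in the controls. S100 proteins had 4 of 12 down and 3 up (2 and 4 with the length trend removed), and S100A10, the partner of annexin A2, was the core member among them, with 265 and 217 FPKM in kd.1 and 215 and 196 in kd.2, against 376 and 464 in the control. Tetraspanins had 7 of 19 down and 1 up (1 and 2 with a common FPKM sum). ADAM and ADAMTS proteases had 2 of 8 down and 1 up (2 and 2 with a common FPKM sum), ADAMTS10 in the core at 1.85 to 2.51 FPKM in the knockdown libraries, against 4.16 and 4.69 in the controls. Ephrins and their receptors had 2 of 8 down and 1 up, semaphorins, plexins and neuropilins 2 of 15 each way (0 down and 3 up with a common FPKM sum, 4 and 0 with the length trend removed), protocadherins 1 of 4 down and serpins 4 of 9 up with 0 down. Metallothioneins, which bind zinc and copper, had both tested members down, MT2A with 94.8 and 89.0 FPKM in kd.1 and 200.1 and 181 in kd.2, against 227 and 308 in the control and MT1X with 11.7 and 10.97 FPKM in kd.1 and 17.9 and 19.2 in kd.2, against 23.1 and 27.0 in the control, most of it in kd.1.

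Among nuclear regulators, histone and chromatin modifiers had 21 of 120 down and 12 up (7 and 18 with a common FPKM sum), with the remodelling subunit SMARCB1 in the core at 49.2 to 53.5 FPKM in the knockdown libraries, against 65.1 and 70.4 in the controls and the deacetylase HDAC1 at 65.99 to 72.0 FPKM in the knockdown libraries, against 82.7 and 85.7 in the controls. Splicing regulators had 13 of 74 down and 8 up (3 and 12 with a common FPKM sum). Core members in this list were SRSF9 (1.38-fold lower) and HNRNPH3 (1.28-fold lower), and RBM47 (1.65-fold higher) and HNRNPF (1.26-fold higher). SRSF9 (adjusted p = 0.0726), HNRNPH3 (0.0694) and, from above, TNFSF13 (0.0529) were not called with the length trend removed and the line difference in the error. Mediator subunits had 7 of 29 down and 3 up (0 and 6 with a common FPKM sum), KLF, SOX, FOX, GATA and ETS factors 10 of 53 down and 8 up (4 and 8 with a common FPKM sum), HOX genes 4 of 16 down and 1 up (10 down without control replicate 1, 2 without either kd.2 library or control replicate 2), and nuclear receptors 4 of 28 each way (2 down and 5 up with a common FPKM sum, 5 and 4 with the length trend removed), with the retinoic acid receptor RARA in the core at 5.10 to 5.64 FPKM in the knockdown libraries, against 7.01 and 7.81 in the controls. The log2 change of SRSF9 was -0.31 in that fit, against -0.46. Translation initiation factors had 12 of 49 up and 7 down, and heat shock and DNAJ chaperones 14 of 63 up and 7 down.

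Trafficking and motor families followed. Sorting nexins, VPS and ESCRT genes had 17 of 72 up and 11 down, and RAB GTPases 5 of 45 up and 8 down (7 and 4 with a common FPKM sum). Glycosyltransferases and sulfotransferases had 10 of 56 up and 8 down (13 and 14 with the length trend removed), kinesins 6 of 28 up and 3 down (3 and 3 with the length trend removed) and myosins 5 of 23 up and 3 down (4 and 4 with the length trend removed). Tyrosine and dual-specificity phosphatases had 8 of 36 up and 4 down, phosphodiesterases 2 of 9 up and 3 down, and aldehyde and aldo-keto dehydrogenases 3 of 20 up and 5 down (4 and 1 with a common FPKM sum). Of 14 tested genes tied to ZNF281 in other systems (EMT factors, repair genes and stem cell genes) 2 were called up and 2 down, and 1 was a shared member. The simple epithelial keratins had 3 of 4 down and 1 up, KRT19 at 90.6 to 114 FPKM in the knockdown libraries, against 115 and 121 in the controls, and KRT7, with overlapping libraries, at 685 and 717 FPKM in kd.1 and 459.6 and 477 in kd.2, against 454 and 483 in the control. KRT19 was not called after leaving out kd.1 replicate 1 (adjusted p = 0.105), either kd.2 library (0.129 and 0.067) or control replicate 2 (0.123), nor with a common FPKM sum (0.14) or with the length trend removed (0.241). KRT7 was not called after leaving out kd.1 replicate 2 (0.0531) or either kd.2 library (0.0537 and 0.0671).

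For the lists of S100 proteins, ADAM proteases, RAB GTPases, sorting nexins, kinesins, myosins, F-box and TRIM proteins, KLF to ETS factors, chromatin modifiers, mediator, splicing, aldehyde dehydrogenases, mitochondrial DNA and lipids, leaving out 1 library turned the balance of up and down calls round, and for tetraspanins, ephrins, protocadherins, phosphodiesterases and initiation factors it made the counts equal. No direction is read from the counts of these lists. Without control replicate 1 the up and down calls were 19 and 10 for KLF to ETS factors, 30 and 27 for chromatin modifiers, 8 and 7 for mediator, 14 and 9 for F-box proteins, 13 and 11 for RAB GTPases, 3 and 1 for ADAM proteases, 8 and 9 for mitochondrial DNA, 10 and 8 for lipids, 2 and 2 for ephrins, 3 and 3 for phosphodiesterases and 1 and 1 for protocadherins. Without control replicate 2 they were 2 and 3 for kinesins, 4 and 2 for S100 proteins, 2 and 2 for TRIM proteins, 4 and 4 for myosins, 10 and 10 for sorting nexins and 3 and 3 for lipids. Without kd.1 replicate 1 they were 6 and 4 for splicing, 3 and 2 for S100 proteins, 2 and 3 for TRIM proteins, 5 and 1 for lipids and 3 and 3 for both myosins and F-box proteins. Without kd.1 replicate 2 they were 3 and 2 for aldehyde dehydrogenases, 5 and 5 for splicing, 3 and 1 for lipids, 2 and 2 for TRIM proteins, 1 and 1 for kinesins and 3 and 3 for S100 proteins and mitochondrial DNA. Without kd.2 replicate 1 they were 2 and 0 for mediator, 1 and 3 for TRIM proteins, 3 and 1 for lipids, 4 and 4 for RAB GTPases, 6 and 6 for sorting nexins, 2 and 2 for myosins and 3 and 3 for initiation factors, S100 proteins and mitochondrial DNA. Without kd.2 replicate 2 they were 5 and 6 for sorting nexins, 2 and 3 for myosins, 1 and 2 for TRIM proteins, 4 and 3 for RAB GTPases and F-box proteins, 3 and 2 for S100 proteins, 3 and 1 for lipids, 3 and 3 for mitochondrial DNA and 1 and 1 for tetraspanins and kinesins. No protocadherin was called without any 1 of the knockdown libraries or control replicate 2.

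More counts moved by over 1.5 times without single libraries. The lowest and highest counts up were 2 (either kd.2 library) and 11 (control replicate 1) for ABC transporters, 6 (either kd.2 library) and 16 (control replicate 1) for glycosyltransferases, 8 (kd.2 replicate 1) and 20 (control replicate 1) for chaperones, 1 (kd.1 replicate 2 or kd.2 replicate 2) and 14 (control replicate 1) for kinesins, and 2 (either kd.2 library) and 11 (control replicate 1) for myosins. They were 3 (kd.2 replicate 1) and 19 (control replicate 1) for initiation factors, 5 (kd.2 replicate 2) and 21 (control replicate 1) for sorting nexins, 2 (any library but control replicate 1) and 9 (control replicate 1) for nuclear receptors, 4 (all knockdown libraries but kd.1 replicate 1) and 8 (control replicate 1) for phosphatases, and 2 (either kd.2 library or control replicate 2) and 4 (control replicate 1) for serpins. The lowest and highest counts down were 2 (kd.2 replicate 1) and 8 (control replicate 1) for glycosyltransferases, 2 (kd.2 replicate 2) and 14 (control replicate 1) for chaperones, 1 (kd.2 replicate 2) and 8 (control replicate 1) for tetraspanins, 4 (kd.1 replicate 1 or kd.2 replicate 2) and 24 (control replicate 1) for splicing regulators, and 3 (all knockdown libraries but kd.1 replicate 1) and 14 (control replicate 1) for initiation factors.

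Of the remaining marker lists, fibroblast markers had 1 of 3 tested genes down, endothelial 1 of 3 down, leukocyte 1 of 2 up, neuronal 2 of 2 down, and erythroid and hepatocyte markers had 0 of 1 and 0 of 2 called. The fibroblast and neuronal lists held 0 shared members, and 2 genes of each were called between the lines, where 32.2% of all tested genes were. DCN, the fibroblast gene called down, was higher in kd.1 (98.5 and 86.0 FPKM) than in the control. TUBB3 in kd.2 (15.2 and 15.8 FPKM) and SNAP25 in kd.1 (1.88 and 2.17, against 1.84 and 1.79) were not below the control. In FPKM the fibroblast list summed to 232 to 303 in the knockdown libraries, against 271 and 285 in the controls, almost all from LUM and DCN. The neuronal list summed to 12.1 to 17.4 against 17.7 and 18.6, the erythroid list to 0.93 to 2.47 against 2.33 and 2.67, and the hepatocyte list to 2.73 to 5.36 against 3.35 and 3.82.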

How the data were processed

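RNA sequencing values of 6 HLE libraries were used, 2 each of ZNF281 kd.1, ZNF281 kd.2 and control, grouped by their titles. Per the submitters' processing notes, RSEM 1.2.12, HISAT2 2.0.4 and Bowtie2 2.2.5 were used with GRCh38.p11 or hg38, and their roles are not given in the sources used here. The authors deposited 1 table of 21372 features with 2 decimals, read here as FPKM from its values because no label gives the unit. The 1869 BGI_novel features were left out. No counts were used, so the depth and the counting error are unknown.

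Genes that reached 1 FPKM in 2 or more libraries were kept. The limma 3.58.1 fit (R 4.3.3) of log2(FPKM + 0.1) had 1 mean per group, an intensity trend and robust moderation, which brought the 3 residual degrees of freedom to a median of 8.64. The fit was tested on simulated data. Members and the 49 gene lists were chosen with earlier results of these data known, and 2 lists are not reported here. Named genes are ZNF281; 20 members per direction by gap (mean of 1 FPKM or more) and 5 by FPKM difference; the 5 most alike and 5 most apart between lines (mean of 10 FPKM or more); 4 just inside and 4 just outside the non-overlap rule; up to 4 per list by p; other core members were chosen after their values were seen. Some genes so named are not described. Transcripts and 3' UTRs came from GENCODE 29 on GRCh38 (10727 of 10851 genes), and promoters from RefSeq. Alternatives changed the pseudocount, filter, scaling, design, moderation and single libraries, and removal of the length trend was added after the data were seen. Python 3, pandas and matplotlib made the tables and plots.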

Additional observations from a re-analysis of the deposited data

Results flagged for a closer look

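Of 163 of the genes named above, 54 differed between the 2 knockdown lines by limma's test of kd.2 minus kd.1, at adjusted p-values of 5.55e-06 to 0.0491. Over all tested genes 3496 of 10851 (32.2%) were called in that test, and some genes were named for this difference, so the count is a description. Values are log2 differences of kd.2 minus kd.1, so a positive one means a higher level in kd.2. Higher in kd.2 were CPA4 2.15, ANTXR2 1.74, CTBP1 1.67, CALD1 1.5, MRPL27 1.46, MRPS28 1.32, C1R 1.16, MT2A 1.05 and UBE2V2 1.02. Smaller positive differences were those of EPGN 1.02, KRT18 0.97, KRT8 0.92, GGT5 0.89, CAMLG 0.73, TNFRSF10A 0.71, MT1X 0.71, FAM167B 0.63 and CDH13 0.57. The smallest positive ones belonged to STMN3 0.50, AXL 0.42, SLC25A29 0.37, UBE2D3 0.36, FZD2 0.30, NSF 0.28, SEC24D 0.27, BAX 0.24 and PTPN11 0.23. Lower in kd.2 were KRT17 -1.90, ANXA10 -1.60, BMP2 -1.30, CRIP2 -1.15, KCTD12 -0.94, S100P -0.90, RNF138 -0.89, CRYAB -0.72 and UBE2Z -0.61. Next in size came KRT7 -0.58, CD55 -0.55, TAGLN2 -0.52, DDB2 -0.50, WDR92 -0.45, IGFBP4 -0.44, TSTD3 -0.42, SNCG -0.42 and TM4SF1 -0.40. Smaller negative differences were those of MDM2 -0.38, SCARA5 -0.33, RPL13A -0.33, VIM -0.29, INTS4 -0.26, PLA2G4A -0.24, SLC41A3 -0.22, NUP43 -0.21 and SRSF9 -0.21. Shared members were chosen with both lines on 1 side of the controls, so their common direction follows from the rule. In some of them limma did not call kd.2 minus control, as in CTBP1 (log2 change -0.03, adjusted p = 0.753) and BMP2 (0.09, adjusted p = 0.412). ANTXR2, SCARA5, CDH13, TSTD3, WDR92, VIM and KRT7 are not shared members. No cause was tested. With 2 libraries a group, no single library could be examined for standing apart within its group.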

How the results depend on the processing

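Against the 1751 genes called up and 2018 called down, the 1478 risen and 1557 fallen members and the 838 members called between lines, a pseudocount of 1, no filter, 1 FPKM in all libraries, centring on the median gene, a plain limma fit and removal of the length trend moved no count by over 1.5 times. A common FPKM sum gave 1031 down, 779 fallen and 508 between lines. Setting 4 libraries against 2 gave 145 up and risen and 165 down and fallen, and with the length trend removed as well 193 and 148. Calls in each line separately gave 701 risen and 697 fallen. Leaving out each library in turn gave 831 to 2936 up, 1024 to 2900 down, 767 to 2735 risen, 888 to 2632 fallen and 288 to 2667 between lines, the highest without control replicate 1. ZNF281 stayed called throughout, at a log2 change of -1.07 to -0.86. The causes were not tested.

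The labels do not say whether the replicate numbers pair the libraries. Same-numbered deviations correlated at 0.183 between kd.1 and kd.2, 0.022 between kd.1 and control and -0.0874 between kd.2 and control. Whether libraries shared a preparation was not tested. With the replicate number as a block, 1382 members were risen and 1467 fallen, and of the named genes ACTG1 (adjusted p = 0.0672), HNRNPH2 (0.0533), HOOK1 (0.0524), KDM5C (0.0655) and S100A4 (0.0609) lost their calls.

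No named gene reversed its direction under any setting. A pseudocount of 1 FPKM shrank the log2 changes of genes at low levels, to 1.31 for ANXA10, 0.71 for ARNT2, -1.28 for CRYAB, -0.77 for TOX2, -0.83 for GGT5 and -0.82 for CDH5. A common FPKM sum gave -0.15 for HNRNPH1. The depth is unknown, both lines are set against 1 control line, and effects of a hairpin on other targets were not tested.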
